A study of Homo sapiens with 3 samples.

Results

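The ends of the chromosomes held 2474 of the 19529 ChIP-seq peaks deposited for codanin-1 and GATA1 in K562 cells, with 1617 from the codanin-1 list of 14365 (11.3%) and 857 from the GATA1 list of 5164 (16.6%). A peak was counted at an end when its midpoint lay below position 5000000, or within 5000000 bp of the largest peak end of either list on that chromosome, on chromosomes 2 to 16, 18, 20 and 21 (hg19). These 18 chromosomes have 36 arms. The short arms of chromosomes 13, 14, 15 and 21 held no peak in either list within 5 Mb of position 1. All values at the ends below are over the other 32 arms. These 4 chromosomes are acrocentric. The first 5 Mb of their short arms is not part of the assembled sequence. The empty ends are thus not a measurement of binding.

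K562 is an erythroleukaemia line, from a patient with chronic myeloid leukaemia, and the cells carried no treatment or engineered allele in the labels. Chromatin immunoprecipitation and sequencing (ChIP-seq) was done with 1 library per antibody: a homemade antibody to an N-terminal fragment of codanin-1 (Cod1), the N6 antibody to GATA1, and rabbit IgG. No IgG peak list was available here, so whether IgG also gives peaks at the ends was not tested. With 1 library each there is no replicate error, and every interval below covers counting error only. Codanin-1, the product of the gene mutated in most patients with congenital dyserythropoietic anaemia type I, is a partner of the histone chaperone ASF1. GATA1 is the zinc-finger transcription factor that directs erythroid gene expression.

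A chromosome ends in a telomeric repeat array, followed inward by subtelomeric sequence. Subtelomeres are mosaics of segments that several chromosome ends share, so that short reads from one end can match another. Beyond them, the last megabases of many human arms are rich in genes, in GC and in short tandem repeats. The α-globin cluster, with its distant erythroid enhancer that GATA1 binds, lies near the tip of the short arm of chromosome 16. The tips of 4q and 10q carry arrays of the macrosatellite D4Z4, a repeat of kilobase-sized units that is nearly identical on both arms. No annotation of the files' build was used, so peaks carry no gene or repeat assignment here, and these landmarks are background.

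Every one of the 32 arms held peaks of both antibodies, but in very uneven numbers. The codanin-1 count ran from 5 on 20p to 191 on 7q, with a median of 46 per arm, and the GATA1 count from 1 on 3p and on 9p to 145 on 7q, with a median of 20. The long arms of chromosomes 7 and 21 stood above all others in both lists. 7q held 191 codanin-1 peaks (exact Poisson 95% interval 165 to 220) and 145 GATA1 peaks (122 to 171). 21q held 174 codanin-1 peaks (149 to 202) and 112 GATA1 peaks (92.2 to 135). Together these 2 arms held 22.6% of the codanin-1 and 30.0% of the GATA1 peaks at the ends. The genes near these tips include SHH, a signalling ligand of limb and neural patterning, on 7q and the collagen VI genes on 21q.

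After 7q and 21q the codanin-1 order continued with 5p (113 peaks), 6q (92), 6p (89), 16q (82) and 16p (72). The Poisson intervals of 6q (74.2 to 113), 6p (71.5 to 110) and 16q (65.2 to 102) overlapped widely, so these neighbours in the order do not differ beyond counting error. For GATA1 the order after 7q and 21q was 5p (68), 16p (47), 16q (44) and 6q (41). 6p, with 89 codanin-1 peaks, held only 19 GATA1 peaks (11.4 to 29.7). Fewer than 10 codanin-1 peaks were found on 4 arms (2q, 9p, 11q and 20p), and fewer than 10 GATA1 peaks on 11 arms, which include those 4. The sparse 9p end held 6 codanin-1 peaks and 1 GATA1 peak. Across the 32 arms the counts of the 2 lists had a Pearson's r of 0.96 and a Spearman's rho of 0.92 (0.90 and 0.90 without 7q and 21q). Both counts of a point come from the same stretch of genome in the same cell line, and whether copy number or mappable length move with them was not tested.

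On the 14 chromosomes with both ends represented, the long-arm end held more codanin-1 peaks than the short-arm end on 9 and fewer on 5, and the same split, 9 and 5, was found for GATA1. In sum the long-arm ends held 790 codanin-1 and 454 GATA1 peaks, against 605 and 274 on the short-arm ends. Chromosomes 5 and 7 had ends that differed by many codanin-1 peaks in opposite directions. 5p held 113 codanin-1 peaks against 46 on 5q, whereas 7p held 55 against 191 on 7q. Relative to their size the ends of chromosome 20 (5 on 20p and 52 on 20q) and chromosome 9 (6 and 56) were further apart.

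**Figure D1:**
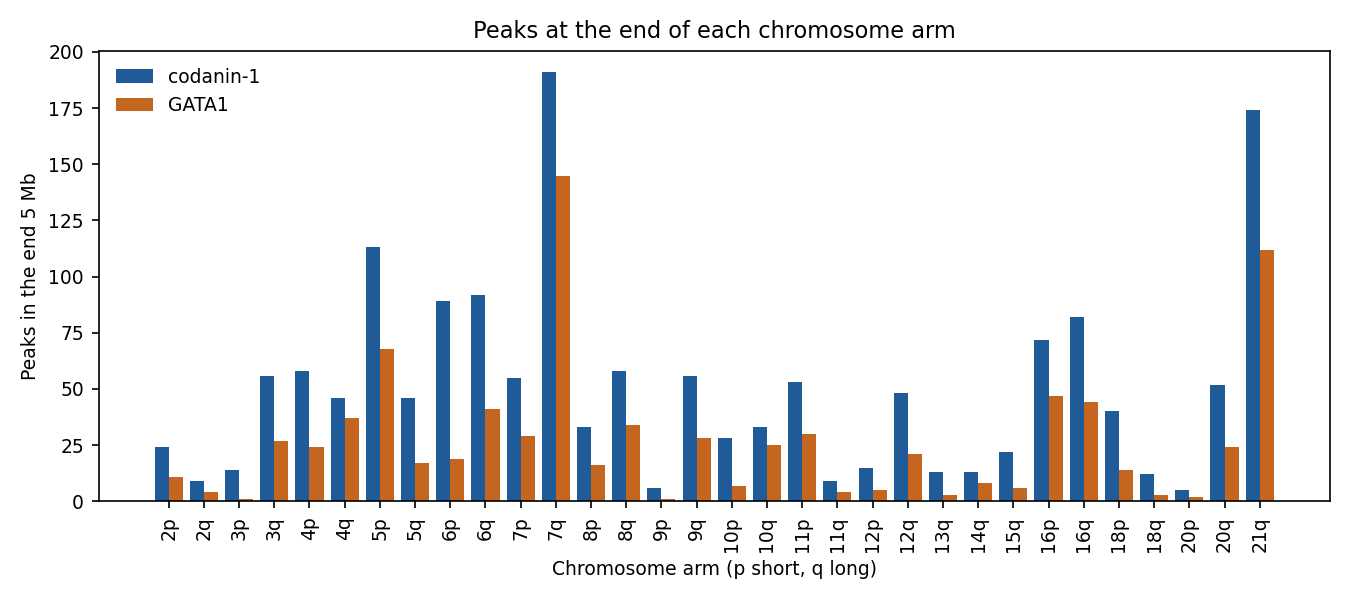
Number of peaks in the end 5 Mb of each of the 32 arms that held peaks, for codanin-1 (blue) and GATA1 (orange), 1 library each. 7q (191 and 145 peaks) and 21q (174 and 112) stand above the other arms in both lists, and 6p pairs a high codanin-1 count (89) with a low GATA1 count (19).

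To ask how the ends compare with the rest of the same chromosomes, peaks per Mb were set against the interior, which is everything further than 5 Mb from either end. Codanin-1 peaks were 2.91 times as dense at the ends as in the interior (95% exact interval 2.75 to 3.07), and GATA1 peaks 5.65 times (5.21 to 6.11). By these lengths the ends were denser than the interior on 18 of 18 chromosomes in each list. The chromosome ratio ran from 1.10 on chromosome 15 to 6.38 on chromosome 4 for codanin-1, and from 1.28 on chromosome 9 to 14.5 on chromosome 5 for GATA1. On chromosomes 13, 14, 15 and 21 the interior length includes unassembled short-arm sequence, which raises the ratio. The 1.10 of chromosome 15 therefore does not show that its end was denser. Interiors of these chromosomes counted from their first peak were run for the pooled ratios only (2.85 for codanin-1 and 5.53 for GATA1). The GATA1 ratio was above the codanin-1 ratio on 16 of 18 chromosomes, the exceptions being chromosomes 9 and 13. The odds of lying at an end rather than inside were 1.94 times higher for a GATA1 than for a codanin-1 peak (exact conditional 95% interval 1.76 to 2.14).

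The size of this contrast depended on what the ends were set against. Interiors contain centromeres and assembly gaps, where no peak can be called, and these were not removed. Against only the next 5 Mb of the same arms, 5 to 10 Mb from the end, the ratio was 1.42 (1.31 to 1.53) for codanin-1 and 2.20 (1.95 to 2.48) for GATA1. On 9q, 0.5 Mb of that stretch held 150 codanin-1 and 168 GATA1 peaks. Crowded windows (1 Mb with 10 times the mean count or more in each list) were then left out of the 5 to 10 Mb stretch only. The ratios became 1.61 (1.49 to 1.74) for codanin-1 and 3.82 (3.29 to 4.45) for GATA1. A crowded window at the ends, on 7q, was kept. Without 7q and 21q, the ratio to the full interior was 2.40 for codanin-1 and 4.22 for GATA1.

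Within the ends, peaks became denser towards the tip in both lists, and more steeply for GATA1. In steps of 0.5 Mb from the end, codanin-1 peaks fell from 264 in the outermost step (16.5 per Mb, exact Poisson 95% interval 14.6 to 18.6) to 116 in the innermost (7.25 per Mb, 5.99 to 8.70). GATA1 peaks fell from 183 (11.4 per Mb, 9.84 to 13.2) to 39 (2.44 per Mb, 1.73 to 3.33). The fall was not smooth: for codanin-1 the step from 3.5 to 4 Mb held 158 peaks, more than the 130 of the step before it, and 28 of the 158 were on 7q. The outermost 1 Mb held 29.3% of the codanin-1 and 39.2% of the GATA1 peaks at the ends, and the innermost 1 Mb 13.4% and 7.47%.

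Set as a ratio, the outermost 1 Mb held 2.19 times as many codanin-1 peaks as the innermost (95% exact interval 1.86 to 2.58) and 5.25 times as many GATA1 peaks (4.01 to 6.97). The odds of the outermost against the innermost 1 Mb were 2.40 times higher for GATA1 than for codanin-1 (exact conditional 95% interval 1.74 to 3.33). Without 4q, 7q, 10q and 21q the ratios were 2.35 and 5.69, and the odds differed 2.42 times (1.60 to 3.74). Short and long arms showed the same order. For codanin-1 the outermost 1 Mb held 29.8% of short-arm and 29.0% of long-arm peaks, and for GATA1 41.2% and 38.3%. The gradient was also spread over arms. The outer 2.5 Mb held more peaks than the inner 2.5 Mb on 22 of 32 arms for codanin-1 (fewer on 7, equal on 3) and on 28 of 32 for GATA1. Among the 21 arms with at least 10 peaks in each list, the GATA1 share in the outer 2.5 Mb was the larger one on 17, the exceptions being 2p, 3q, 5q and 18p. On 7q that share was 75.2% for GATA1 and 51.8% for codanin-1, and on 20q 95.8% and 69.2%.

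**Figure D2:**
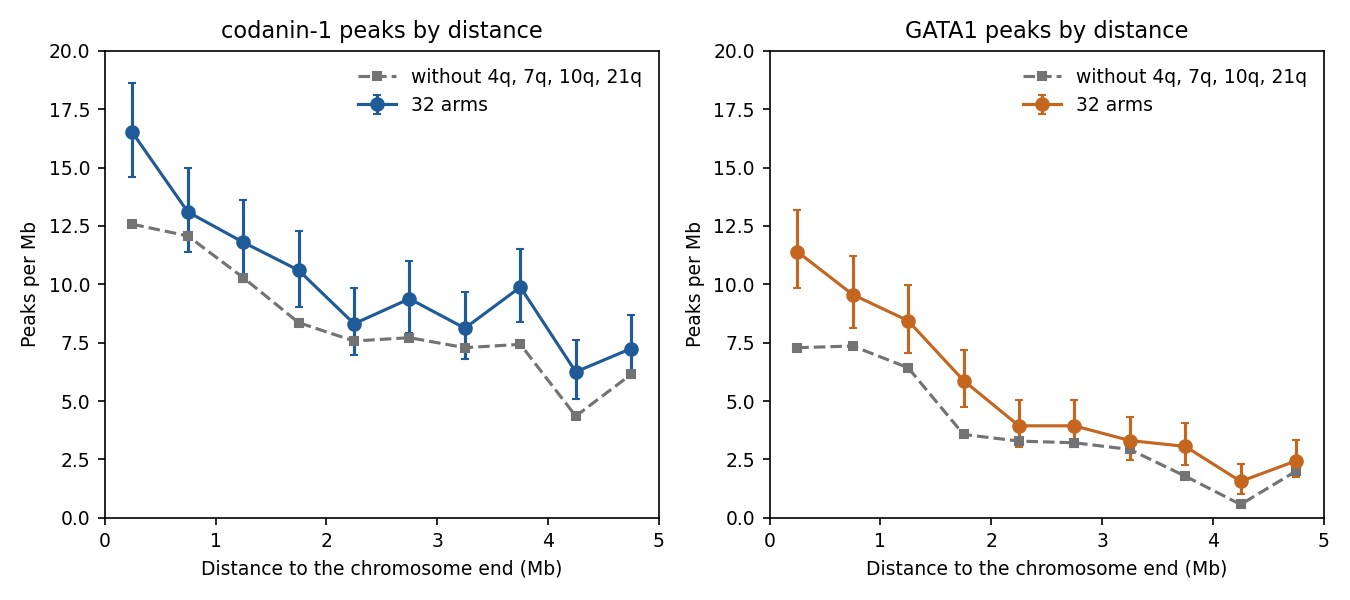
Peaks per Mb in steps of 0.5 Mb from the chromosome end, for codanin-1 (left) and GATA1 (right). Points with bars are all 32 arms with exact Poisson 95% intervals, and grey squares leave out 4q, 7q, 10q and 21q. Codanin-1 falls from 16.5 to 7.25 per Mb and GATA1 from 11.4 to 2.44 per Mb between the outermost and innermost step.

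The edge of the rule falls where the counts were lower than at the tips. In the 100 kb just inside 5 Mb there were 23 codanin-1 and 4 GATA1 peaks over all arms, and in the 100 kb just outside it 23 and 8. The last codanin-1 peak inside was on 6p at 4996558 to 4996716 (4.12-fold), and the first outside on 4p at 5006147 to 5006543 (3.97-fold). For GATA1 these were 16q at 85241697 to 85241766 (5.24-fold) and 20q at 57939736 to 57939933 (4.26-fold).

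The number of codanin-1 peaks for each GATA1 peak was lower at the ends than inside. It was 1.89 at the ends (95% exact interval 1.74 to 2.05), 3.66 in the interior of the same chromosomes (3.49 to 3.84) and 2.78 in the whole lists. In the stretch 5 to 10 Mb from the end it was 2.70 (2.41 to 3.02). Without the crowded windows the interior value was 4.01 and that of 5 to 10 Mb 3.84 (3.36 to 4.41). By distance the ratio was 1.44 in the outermost step (1.19 to 1.75), 1.37 and 1.39 in the next steps, 2.11 between 2 and 2.5 Mb, 4.00 between 4 and 4.5 Mb (2.56 to 6.47, with 25 GATA1 peaks) and 2.97 in the innermost step (2.05 to 4.39). Depth sets how many peaks of each antibody pass a threshold, so the ratio ranks regions within this pair of lists and does not compare binding of the proteins.

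By arm the ratio ran from 1.24 on 4q to 14.0 on 3p, with a median of 2.21, and on 0 of 32 arms did GATA1 peaks outnumber codanin-1 peaks. It was below the interior value of 3.66 on 25 of 32 arms. On 13 of them the arm's 95% exact interval lay wholly below 3.66, and on 0 did it lie wholly above. The value of 3.66 is pooled over chromosomes. 9q, at 2.00, is among the 13, although the interior of its own chromosome held 471 codanin-1 and 297 GATA1 peaks. The highest ratios rested on few GATA1 peaks. 3p had 14 codanin-1 peaks and 1 GATA1 peak, and its interval was 2.13 to 592. 6p is the arm where a high ratio, 4.68, came with many peaks (interval 2.83 to 8.14).

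Each arm's share of the codanin-1 list was then compared with its share of the GATA1 list by a two-sided Fisher's exact test, with Benjamini-Hochberg adjustment over the 68 end and interior segments of all chromosomes that held a peak. Of the 32 arms, 6 had a larger share of the GATA1 list at an adjusted p under 0.05, against 20.6% of all segments (14 of 68). Such calls were thus not more frequent among these arms than among all segments. By Fisher's exact test the 6 arms were 7q (odds ratio for codanin-1 over GATA1 0.466, adjusted p = 3.1e-10), 21q (0.553, 1.5e-05), 4q (0.445, 0.0017), 5p (0.594, 0.0033), 16p (0.548, 0.0075) and 10q (0.473, 0.018). Larger shares of the codanin-1 list were found on 0 of 32 arms, against 19.1% of all segments, and 6p was the single arm that reached an unadjusted p under 0.05 in that direction (odds ratio 1.69, with a Fisher's exact test adjusted p = 0.082). Of the interiors of the same 18 chromosomes, 11 passed with a larger part of the codanin-1 list and 1, chromosome 9, with a larger part of the GATA1 list, at an adjusted p under 0.05. The test compares these 2 libraries and treats neighbouring peaks as independent, so its p-values are too small. Each of the 6 calls was lost under some setting: 10q with peaks within 1 kb merged (odds ratio 0.594, with a Fisher's exact test adjusted p = 0.302), and 16p (0.679, 0.0725) and 5p (0.726, 0.0677) with ends of 10 Mb. At a −log10 q of at least 2, with fewer peaks, the calls of 7q (0.569, 0.0750), 21q (0.566, 0.0813), 16p (0.654, 0.592) and 5p (0.722, 0.606) were lost. The odds ratios of 7q, 16p and 5p had moved towards 1. At 3 the calls of 4q (0.463, 0.456) and 10q (0.112, 0.0826) were lost as well. There the odds ratios of 21q and 4q stayed close to those over all peaks. The cause of these losses was not tested.

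**Figure D3:**
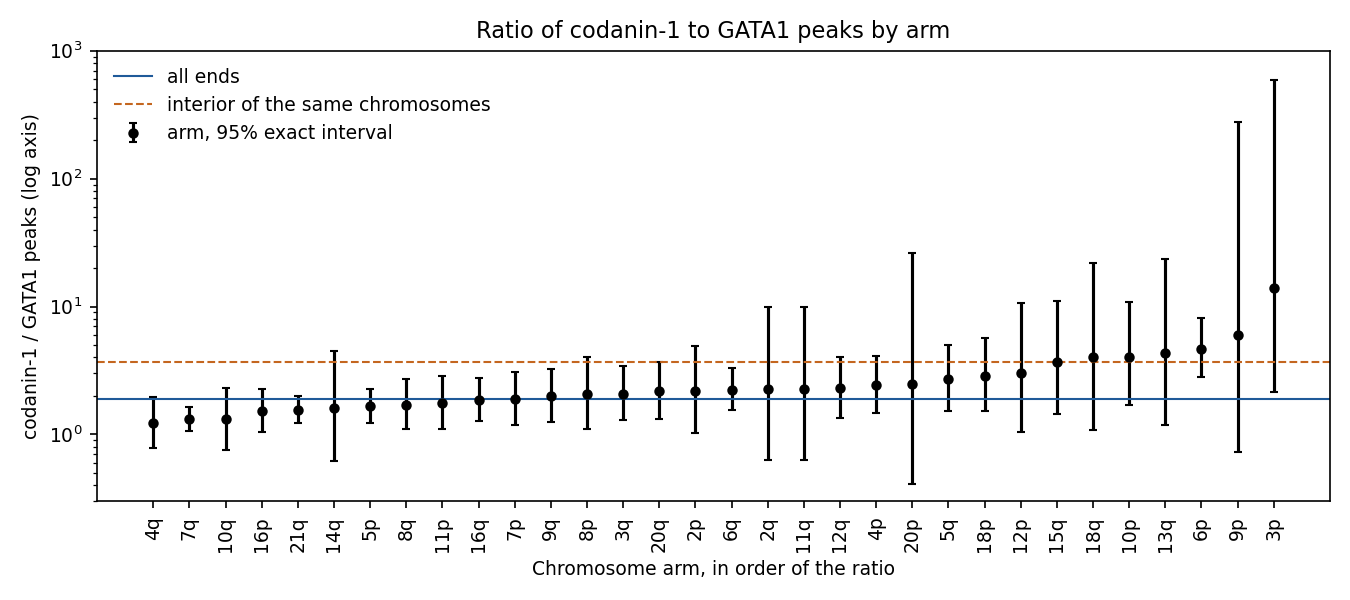
Codanin-1 peaks per GATA1 peak at each of the 32 arm ends, on a log axis, in order of the ratio. Bars are 95% exact intervals, the solid line is the value over all ends (1.89) and the dashed line the interior of the same chromosomes (3.66). The arms from 4q (1.24) to 3p (14.0) lie mostly below the dashed line, and the widest bars belong to arms with 1 or 2 GATA1 peaks.

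To ask whether the 2 antibodies gave peaks at the same sites near chromosome ends, the lists were overlapped by at least 1 bp. The codanin-1 peaks with a GATA1 peak on them numbered 117 of 1617 at the ends, a share of 7.24% (95% exact interval 6.02 to 8.61), against 6.60% of the whole list. For GATA1 the number was 119 of 857, a share of 13.9% (11.6 to 16.4), against 20.2% of the whole list. In the interior of the same chromosomes the shares were 4.58% (4.13 to 5.06) for codanin-1, below the ends, and 17.9% (16.3 to 19.6) for GATA1, above them. With the crowded windows taken out of the interior only, they were 3.32% (2.93 to 3.75) and 13.9% (12.4 to 15.5), the latter equal to the ends. Most arms contributed little. On 10 of 32 arms there was no overlapping peak at all, and on 14 there were 1 to 3 overlapping codanin-1 peaks. 16q was the fullest of the arms without overlap, with 82 codanin-1 and 44 GATA1 peaks, and the upper exact limit of its codanin-1 share was 4.40%. 7q and 21q, with the most peaks, had shares of 6.28% and 6.90% of their codanin-1 peaks.

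2 arms stood apart. On 4q 28 of 46 codanin-1 peaks (60.9%, 45.4 to 74.9) and 23 of 37 GATA1 peaks (62.2%, 44.8 to 77.5) overlapped. On 10q it was 15 of 33 (45.5%, 28.1 to 63.6) and 16 of 25 (64.0%, 42.5 to 82.0). Together they supplied 43 of the 117 overlapping codanin-1 peaks (36.8%) and 39 of the 119 overlapping GATA1 peaks. Without 4q and 10q, arms left out after their values were seen, the overlapping share at the ends was 4.81% for codanin-1 (74 of 1538) and 10.1% for GATA1 (80 of 795). The excess in the outermost 0.5 Mb also rested on them. There 22.0% of codanin-1 peaks overlapped (17.1 to 27.5), compared with 6.22% in the next step (3.35 to 10.4), and without 4q and 10q the outermost share was 7.32% (4.15 to 11.8).

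**Figure D4:**
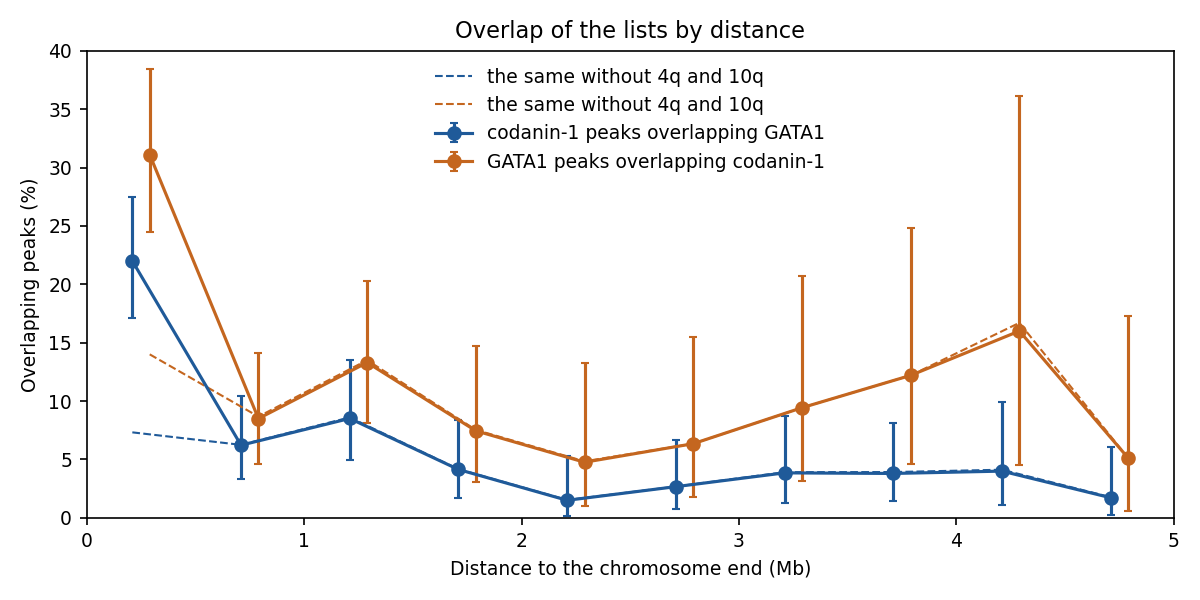
Share of peaks that overlap the other list, by distance to the chromosome end in steps of 0.5 Mb, with 95% exact intervals. Solid lines are all 32 arms and dashed lines leave out 4q and 10q. The outermost step, at 22.0% for codanin-1 and 31.1% for GATA1, drops to 7.32% and 14.0% without these arms.

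On 4q and 10q the peaks of both antibodies stood in close rows at the very tip. In the last 100 kb of 4q lay 28 of its 46 codanin-1 peaks, between 190942582 and 191013706, and 26 of its 37 GATA1 peaks. In the last 100 kb of 10q lay 18 of 33 codanin-1 peaks, between 135462053 and 135501405, and 18 of 25 GATA1 peaks. Of these, 26 codanin-1 peaks on 4q and 15 on 10q overlapped a GATA1 peak, and on the rest of these ends only 2 and 0 did. D4Z4 arrays are known at these tips, and reads of one array cannot be told from those of the other where the units are identical.

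The rows had low enrichment. The fold enrichment, the authors' ratio of library over background for each peak, had a median of 3.07 (lowest 2.39, highest 4.61) for codanin-1 in the last 100 kb of 4q, against 3.94 on the rest of that end. On 10q it was 3.16 (1.77 to 3.55) against 4.23. GATA1 medians were 4.02 against 4.32 on 4q and 3.70 against 4.39 on 10q. Peaks in the rows were wider: the median width of the GATA1 peaks was 344 bp against 97 bp on 4q and 506 bp against 139 bp on 10q.

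Spacing was measured in the last 30 kb. From 190991566 to the end of 4q, narrow GATA1 peaks of 311 to 344 bp alternated with wide ones of 1452 to 1797 bp. Over the 30 kb the distance from the start of a peak to the start of the one 2 places on had a median of 3286 bp (range 1868 to 3576, n = 16 distances). The same distance on 10q had a median of 3307 bp (1609 to 5871, n = 15). Codanin-1 peaks on 4q came more densely, 22 in that stretch, and the start of a peak and of the one 3 places on were a median of 3433 bp apart (2993 to 5666, n = 19). On 10q the codanin-1 spacing was irregular, with 2799 to 9353 bp over 3 places. The stretch and the lag were chosen after the positions were seen, so these spacings are a description.

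**Figure D5:**
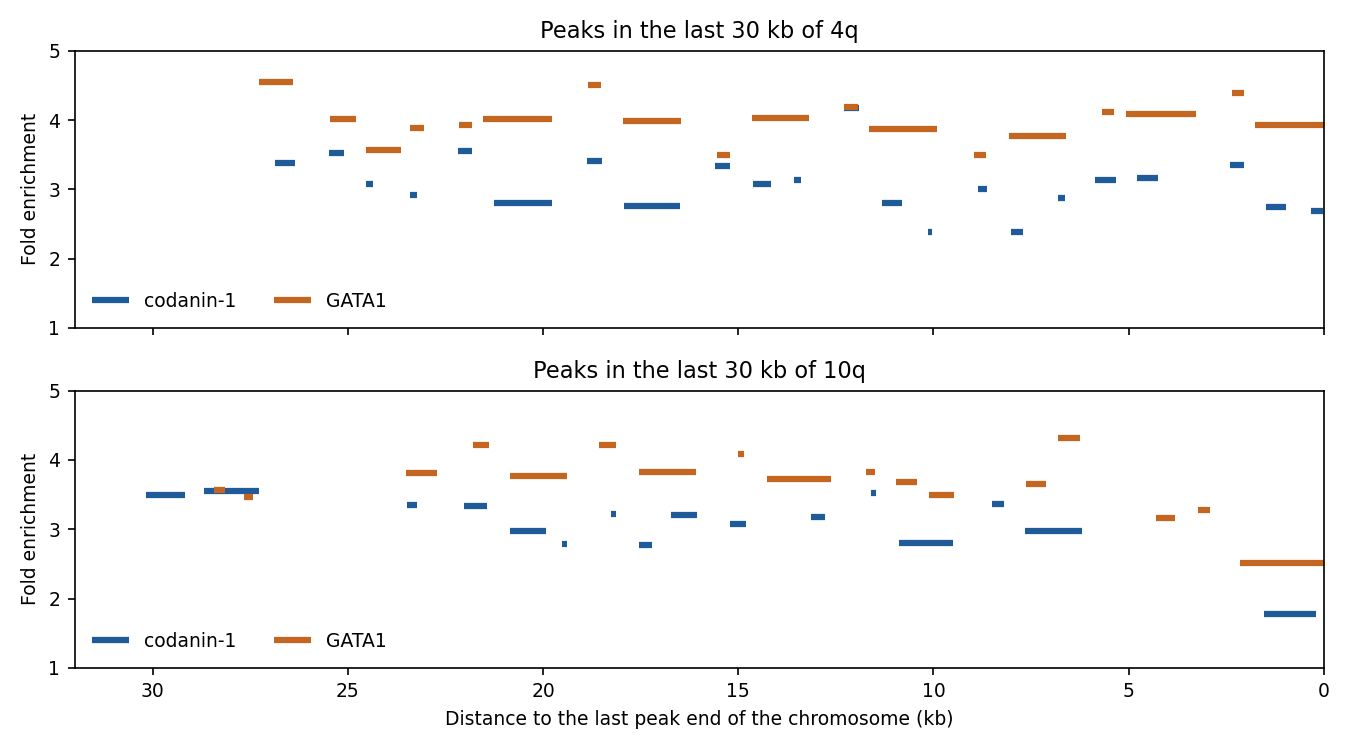
Peaks in the last 30 kb of 4q (top) and 10q (bottom), each drawn as a bar over its true width at its fold enrichment, for codanin-1 (blue) and GATA1 (orange). The x axis is the distance to the last peak end of the chromosome. From a GATA1 bar to the one 2 places on, the starts are a median of 3286 bp apart on 4q and 3307 bp on 10q, and most codanin-1 bars share their position with a GATA1 bar.

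Outside 4q and 10q, some crowded stretches held peaks of one list and others of both. Over all ends, 4q and 10q included, runs of at least 5 peaks with gaps of at most 10 kb held 72 codanin-1 peaks (4.45%) in 7 runs and 72 GATA1 peaks (8.40%) in 6 runs. The runs on 4q and 10q made up most of both, with 26 and 18 codanin-1 peaks and 20 and 18 GATA1 peaks. Shares over the interior or the whole lists are not given here, so these values do not show whether runs are more frequent at the ends. The largest run outside 4q and 10q was one of 19 GATA1 peaks on 7q, from 158115041 to 158153766, 935 kb from the end. Its peaks had a median fold enrichment of 4.40 (3.79 to 6.09) and a median width of 165 bp, and the same 38.7 kb held 1 codanin-1 peak. On 5p the reverse was seen, with 7 codanin-1 peaks and 1 GATA1 peak between 306699 and 325343. Neighbouring runs on 3q belonged to different lists: 5 GATA1 peaks from 195503636 to 195512641 with 0 codanin-1 peaks, and 5 codanin-1 peaks from 195529405 to 195551449 with 0 GATA1 peaks. On 21q runs of both lists covered the same place, 44580100 to 44598761 for codanin-1 (6 peaks) and 44585975 to 44601346 for GATA1 (5 peaks), where 1 peak of each run overlapped. Peaks of the other list also lay in a codanin-1 run on 7q (157334422 to 157353612, 5 peaks with 3 of GATA1) and a GATA1 run on 3q (195344706 to 195361837, 5 peaks with 2 of codanin-1). One window of 1 Mb at an end, on chromosome 7 from 155000001 to 156000000, was crowded by the rule given above, with 51 codanin-1 and 26 GATA1 peaks.

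Median peak height at the ends was slightly above that inside, more so for GATA1, which also had a larger share of high-fold peaks at the ends. The median fold enrichment was 4.04 for codanin-1 (order-statistic 95% interval 4.01 to 4.07) against 3.98 in the interior (3.97 to 3.99), and 4.33 for GATA1 (4.31 to 4.36) against 4.15 (4.13 to 4.16). The median GATA1 peak was 150 bp wide at the ends and 167 bp inside, and the median codanin-1 peak 229 bp and 205 bp. 79 codanin-1 peaks at the ends had a fold of 5 or more, 4.89% (3.89 to 6.05), against 4.78% of the whole list. For GATA1 it was 74 peaks, 8.63% (6.84 to 10.7), against 5.25% of the whole list and 5.14% of the interior (4.24 to 6.16). Of the 100 GATA1 peaks of highest fold in the genome 30 lay at these ends, which hold 16.6% of the list, and of the 100 highest codanin-1 peaks 15 did, against 11.3%.

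The most significant GATA1 peaks were less frequent at the ends than inside, although the median −log10 q was 1.65 at the ends and 1.62 inside. At the ends 27 GATA1 peaks had a −log10 q of 5 or more, 3.15% (2.09 to 4.55), against 5.27% of the whole list and 151 of 2141 in the interior (7.05%). Of the 434 GATA1 peaks lying 5 to 10 Mb from the end 8 did (1.84%, 0.799 to 3.60), so the low share was not particular to the ends. These 434 include peaks on the short arms of the acrocentric chromosomes. Of the 1617 codanin-1 peaks at the ends 0 did (upper exact limit 0.228%), against 0.188% of the whole list, a difference that is not detectable with so few such peaks. The highest codanin-1 value at the ends was 4.74, the median was 1.62 against 1.60 inside, and 3.71% of end peaks had a −log10 q of 3 or more, against 3.06% inside.

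Overlapping codanin-1 peaks at the ends had a median fold of 3.75 (3.58 to 3.88), and those without overlap 4.06 (4.03 to 4.08). Without 4q and 10q the medians were 4.03 (3.88 to 4.19) and 4.06 (4.03 to 4.08), so the lower fold of overlapping peaks was not seen on the other arms within this error. For GATA1 the order was the reverse on those arms, with 4.51 in overlapping (4.36 to 4.66) and 4.33 in other peaks (4.30 to 4.36).

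Codanin-1 peaks at the ends lay closer to a GATA1 peak than those inside, where GATA1 peaks are sparser. The median distance was 35992 bp at the ends and 205912 bp in the interior, and 28.3% of end peaks lay over 100 kb from any GATA1 peak, against 61.7% inside. Seen from GATA1, the median distance to a codanin-1 peak was 9837 bp at the ends, longer than the 7350 bp of the interior but shorter than its 11024 bp without the crowded windows.

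The 5 codanin-1 peaks of highest fold at the ends were on 16p at 1696200 to 1696355 (6.47-fold), 9q at 139112236 to 139112390 (6.40), 6p at 4337088 to 4337188 (6.36), 16q at 90228640 to 90228763 (6.18) and 5p at 3660049 to 3660244 (6.16). None of these 5 overlapped a GATA1 peak. The nearest GATA1 peak was 8670 bp away on 16p and between 179576 and 336228 bp away at the others. The 16q peak is also the last peak of that chromosome in either list. By −log10 q the leading peaks were the 6p peak (4.74), the 9q peak (4.69), the first 16p peak (4.65) and a second peak on 16p at 2021760 to 2022075 (4.55).

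Of the 10 GATA1 peaks of highest fold in the genome 5 lay at these ends, on 5p, 14q, 7q, 7p and 4q. They were 65 to 78 bp wide and had fold enrichments of 7.58 to 8.58. The 14q peak, at 104619880 to 104619944, was the one with a codanin-1 peak on it. By −log10 q the first was another peak on 7q, at 155142938 to 155143092, 13.1 in −log10 q and 7.11-fold enriched. A codanin-1 peak with a fold of 4.22 overlapped it, in the crowded window of that arm.

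The second, on 18p at 112231 to 112323, reached a −log10 q of 12.6 at only 3.42-fold enrichment. Beside it, between 106757 and 111324, lay the widest codanin-1 peak at the ends, 4568 bp wide with a fold of 1.72, and across it 3 GATA1 peaks with folds of 2.03 to 2.67. A similar site was found on 12q at 132061410 to 132061953, where a 3.52-fold GATA1 peak (−log10 q 9.05) met a codanin-1 peak with a fold of 2.12.

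Among overlapping pairs, the highest codanin-1 enrichment was on 14q at 104619851 to 104619966 (6.15-fold, and 8.35-fold for GATA1). A second 14q pair lay at 104717312 to 104718253 (4.92-fold in each list). 21q followed the first pair with a peak at 46401742 to 46402179 (5.43 and 5.70). A pair of sites on 12q lay at 131762793 to 131763236 (5.40 and 4.48) and at 131851476 to 131852027 (5.17 and 5.18). The remaining pairs of the first 8 were on 18p at 4510839 to 4511004 (4.85 and 5.45), 4p at 3511074 to 3511483 (4.83 and 6.55) and 8q at 145912261 to 145913351 (4.81 and 4.89). None of these 8 pairs lay on 4q or 10q, the arms with most overlap.

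The outermost peaks show how near to the tips the lists reach. On the fullest short arm, 5p, the first codanin-1 peak was at 71723 to 72290 (4.09-fold) and the first GATA1 peak at 139506 to 139687 (4.05-fold). On 6p the first codanin-1 peak was at 191069 to 191177 (4.62-fold), and on 16p the first GATA1 peak was at 68912 to 68971 (4.41-fold). On long arms the last peak of either list defines the end. That was a codanin-1 peak on 7q (159088973 to 159089082, 4.67-fold), 21q (48112535 to 48112780, 3.61-fold) and 6q (171042683 to 171043059, 3.88-fold). The last GATA1 peaks lay further in, by 92.9 kb on 7q, 17.8 kb on 21q and 180 kb on 16q. Among short arms that held peaks, codanin-1 began furthest from the tip on 20p and 3p, where the first peaks had midpoints 1099220 bp and 954630 bp from position 1.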

How the data were processed

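Peaks from 2 ChIP-seq libraries of K562 cells, codanin-1 and GATA1, were used as deposited. BWA, MACS2 and hg19 are named in the submitters' processing notes, without versions or roles. Sources used here do not give the background library, threshold, filters or pooling. The lists have 9 columns without a header and were read as broad peak files. The fold enrichment is the authors' ratio of library over background. The −log10 p and −log10 q of each peak (its p-value and q-value) are the authors' deposited values. The deposited score is the whole part of 10 times −log10 q and was not used. Files give no read counts, so depth is unknown.

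Members and lists were chosen with earlier results of these data known. Coordinates are hg19, written from 1. Distances ran from peak midpoints to position 1 or to the largest peak end, which can fall short of the chromosome's end. Density used 5 Mb per arm and, inside, the length up to the largest end less 5 Mb at both ends, empty short arms included. Intervals are 95% exact (Clopper-Pearson, Poisson, conditional). Named peaks were the 5 of highest fold and of highest −log10 q in each list, the 8 overlapping pairs of highest codanin-1 fold, and the outermost peak of the 5 fullest arms. Other peaks and runs were named after their values were seen. Peak lists hold no expression values, so the labelled cell type was not checked. The segment test and overlap code were tested on simulated data. Python 3.11.15, numpy 2.4.6, pandas 2.3.3, scipy 1.17.1 and matplotlib 3.10.9 were used.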

Additional observations from a re-analysis of the deposited data

How the results depend on the processing

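Density ratios stayed above 1 in both lists, with the higher estimate for GATA1, in all 14 settings run. The difference between lists was not resolved when only peaks with a −log10 q of 3 or more were kept. There the interval was 2.61 to 4.70 for codanin-1 (60 end peaks) and 3.07 to 5.06 for GATA1 (84 end peaks). For codanin-1 the ratio of 2.91 became 3.55 with ends of 2 Mb, 2.68 with 10 Mb, 3.07 and 3.53 at a −log10 q of at least 2 and 3, 2.65 without 7q, 2.40 without 7q and 21q, 3.08 by covered length, and 1.42 or, without crowded windows, 1.61 against 5 to 10 Mb. For GATA1 the ratio of 5.65 became 8.58 and 4.74 with 2 and 10 Mb, 3.96 at a −log10 q of at least 3, 6.40 after merging peaks within 1 kb, 4.84 without 7q, 4.22 without 7q and 21q, 4.96 by covered length, 6.32 without crowded windows in the interior, and 2.20 or 3.82 against 5 to 10 Mb. The overlap share of codanin-1 peaks was 11.3% with 2 Mb, 10.0% and 18.3% at the q thresholds, 5.80% merged, 2.66% for 0.5 of both lengths, 10.3% within 1 kb and 4.81% without 4q and 10q. For GATA1 it was 16.8% and 18.6% with 2 and 10 Mb, 18.5% at a −log10 q of at least 2, 10.9% merged, 5.02% for 0.5 of both lengths, 19.8% within 1 kb and 10.1% without 4q and 10q. The share in the outermost 1 Mb was 57.0% and 17.1% of codanin-1 peaks with 2 and 10 Mb, 31.7% at a −log10 q of at least 3, 26.9% without 4q and 10q and 32.3% without 7q and 21q. For GATA1 it was 59.5% and 26.9%, 47.2% and 53.6% at the q thresholds, 35.9% merged, 35.1% without 4q and 10q and 43.7% without 7q and 21q. Median folds were 3.99 and 4.27 with 10 Mb, and at the q thresholds 4.69 and 5.39 for codanin-1 and 4.80 and 5.20 for GATA1. Arms with the larger GATA1 share numbered 10 with 2 Mb, 3 and 0 at the q thresholds (fewer peaks tested), and 10 without crowded windows, Y and M in the reference. Arms with the larger codanin-1 share numbered 3 with 10 Mb. At the stricter q threshold the odds ratio turned to 3.15 on 16p and 1.00 on 5p, with 7 and 9 peaks left; the cause was not tested. The settings without 4q and 10q, without 7q and 21q, with the interior of acrocentric chromosomes counted from its first peak, and with crowded windows left out of the 5 to 10 Mb stretch were added after seeing the data. No paired analysis was possible because there was 1 library per antibody, which also left none to omit. An arm left without GATA1 peaks (3p, 6p, 15q and 18q at q thresholds, 3p with 2 Mb) gave no odds ratio. Depth is unknown, so peaks below the caller's threshold cannot be counted.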
